A study of Homo sapiens with 6 samples.

Results

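A set of 346 cassette exon records, out of 1263 in the splicing table of the study, had a higher mean inclusion level in the first of the table's groups (group 1) than in the second (group 2). A cassette exon, or skipped exon (SE), is an internal exon that is either joined to both neighbours or left out of the mRNA. Its inclusion level is the share of transcripts with the exon, among those that include or skip it between the neighbours named in the record. The level was computed from the reads for inclusion and for skipping, each divided by its effective length. An exon can have records with different neighbours, and its level can differ between them. The 346 records were 27.4% of the SE records, and they were chosen by the sign of the difference between the group means of these levels alone. The remaining 917 records were lower in group 1, and the table held 1582 records of all event types. The authors tested 26540 SE events. Every SE record in the table had an absolute difference of at least 0.1, while the rule of listing is not given in the sources used here. The 346 records were 1.30% of the SE events tested. They covered 332 distinct exons of 309 genes.

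RNA came from SW480, a line derived from an adenocarcinoma of the human colon and labelled wild type. Cells received lentivirus with a non-silencing short hairpin (shCtrl) or one that targets RBM39 (shRBM39), and each arm gave 3 of the 6 libraries. The study's methods describe puromycin selection of stable clonal lines in both arms, so differences between clones cannot be told apart from the hairpin, and the time of harvest is not given in the sources used here. The gene table held between 18042924 and 20428901 counts per library, and no pair of replicates agreed within sampling noise. RBM39, the targeted gene, measured 441, 448 and 435 CPM (counts scaled to a common library size) in shCtrl and 266, 276 and 292 CPM in shRBM39. Its log2 fold change was -0.67 (SE 0.04, adjusted p = 1.24e-16, edgeR's quasi-likelihood test), and the groups did not overlap. Of 10 colon epithelial markers, 8 reached 1 CPM in every library, while KRT20 peaked at 1.45 CPM and CEACAM5 at 0.283 CPM. Of 4 leukocyte markers, 0 reached 1 CPM in every library, and PTPRC was at 0 in each. Of 4 fibroblast markers, 2 reached it, COL1A1 (at most 10.6 CPM) and PDGFRB (at most 1.79 CPM). Of 3 endothelial markers, 1 did, PECAM1 (at most 6.23 CPM).

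The splicing table names its groups only as 1 and 2. Which of them holds the shRBM39 libraries is not stated there, and levels are therefore given for group 1 and group 2. As a description, across 255 genes with at least 300 reads in these records, the log2 ratio of event reads in group 1 over group 2 and the log2 fold change of the gene in shRBM39 over shCtrl had a Pearson r of 0.90 and a Spearman rho of 0.88. Both quantities come from the same 6 libraries, and no library was assigned to a group from them.

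The spliceosome recognises an exon by the splice sites at its ends. The 3' splice site lies before the exon and consists of a pyrimidine-rich stretch followed by AG, and the 5' splice site lies after it and starts with GT or, more rarely, GC. U2AF binds the pyrimidine-rich stretch, and RBM39 is a serine- and arginine-rich RNA-binding protein related to the large subunit of U2AF. An exon whose length is a multiple of 3 bases can be kept or left out without moving the reading frame. Very short exons, called microexons, leave little room for the proteins that bind an exon and depend on signals in the flanking introns.

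All 332 exons were present in GENCODE v44 and were preceded by AG in the reference genome. The donor was GT for 327 exons and GC for 5. The shortest well-covered exons are printed first because their whole sequence can be read at a glance, with 20 bases of the intron before and 10 bases of the intron after the exon on GRCh38. Capitals mark the exon, and each sequence is given 5' to 3' on the strand of its gene.
DCTN2, chr12:57538509-57538544, minus strand: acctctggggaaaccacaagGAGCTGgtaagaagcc
MTSS1L, chr16:70679305-70679343, minus strand: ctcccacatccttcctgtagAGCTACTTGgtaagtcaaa
STX16, chr20:58659603-58659644, plus strand: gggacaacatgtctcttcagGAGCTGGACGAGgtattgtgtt
DNM2, chr19:10808549-10808590, plus strand: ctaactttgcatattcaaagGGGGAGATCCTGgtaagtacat
INCENP, chr11:62141480-62141521, plus strand: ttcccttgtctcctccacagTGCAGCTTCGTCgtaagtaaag
MAX, chr14:65101536-65101592, minus strand: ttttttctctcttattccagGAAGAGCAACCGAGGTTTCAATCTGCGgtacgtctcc
SNX14, chr6:85538828-85538884, minus strand: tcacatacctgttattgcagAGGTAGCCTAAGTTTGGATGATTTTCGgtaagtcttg
PTPRF, chr1:43602051-43602107, plus strand: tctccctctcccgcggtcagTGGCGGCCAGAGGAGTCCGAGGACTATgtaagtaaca

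The next sequences belong to longer exons that the results below turn on, in the same layout. They were kept to exons of at most 140 bases. Not every such exon is printed, and that of ZFAND1 is among those left out.
BIN1, chr2:127057463-127057621, minus strand: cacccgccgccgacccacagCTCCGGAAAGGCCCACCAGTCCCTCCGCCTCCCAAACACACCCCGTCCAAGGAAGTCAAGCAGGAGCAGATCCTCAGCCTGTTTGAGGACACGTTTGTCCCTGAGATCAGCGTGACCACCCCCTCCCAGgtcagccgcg
SMPD4, chr2:130161176-130161292, minus strand: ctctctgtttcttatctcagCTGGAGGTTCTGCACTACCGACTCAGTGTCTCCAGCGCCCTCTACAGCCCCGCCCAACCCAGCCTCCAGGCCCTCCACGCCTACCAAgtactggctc
CHAF1A, chr19:4405892-4405972, plus strand: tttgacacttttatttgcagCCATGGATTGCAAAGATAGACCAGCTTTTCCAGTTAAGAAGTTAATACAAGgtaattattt
KCNAB2, chr1:6041811-6041882, plus strand: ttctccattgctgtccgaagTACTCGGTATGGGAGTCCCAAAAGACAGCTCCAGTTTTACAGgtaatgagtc
UPF3A, chr13:114282817-114282953, plus strand: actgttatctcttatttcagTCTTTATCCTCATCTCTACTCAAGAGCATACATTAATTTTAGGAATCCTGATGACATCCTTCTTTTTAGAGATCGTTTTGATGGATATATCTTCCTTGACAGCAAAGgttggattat
MFF, chr2:227352494-227352583, plus strand: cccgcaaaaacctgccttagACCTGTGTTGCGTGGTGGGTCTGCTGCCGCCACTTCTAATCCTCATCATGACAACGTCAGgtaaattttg
GANAB, chr11:62634300-62634395, minus strand: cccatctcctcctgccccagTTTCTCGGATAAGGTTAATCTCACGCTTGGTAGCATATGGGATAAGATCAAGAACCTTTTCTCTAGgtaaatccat
MTA1, chr14:105449339-105449419, plus strand: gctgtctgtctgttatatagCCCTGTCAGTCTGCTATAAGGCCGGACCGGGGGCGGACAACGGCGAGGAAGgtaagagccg

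Inclusion in group 1 was mostly high. The median of the mean levels was 0.856 in group 1 (quartiles 0.653 and 0.945) and 0.550 in group 2 (quartiles 0.295 and 0.734), and the median difference was 0.222 (quartiles 0.148 and 0.333). In 193 records the mean level was over 0.5 in both groups, in 96 it passed 0.5 in group 1 only, and in 57 it stayed at or under 0.5 in both. Group 1 was at a level of 1 in all its values in 56 records, and group 2 was at 0 in all its values in 4. These levels chose the records and are described without a test.

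Read depth differed widely between records. The library with the fewest reads held a median of 6 reads (quartiles 2 and 20), and 89 records reached 20 or more in each library. The 3 levels of group 1 all lay above the 3 of group 2 in 171 of the 346 records, or 49.4%, where the share over all SE records was 56.3%. Among the 89 records with at least 20 reads it was 76, or 85.4%, beside 83.7% of the 443 SE records of that depth. These 76 were 22.0% of the 346 records, and the same condition was met by 29.4% of all SE records. The median difference was 0.325 over the 141 records under 5 reads, 0.189 over the 116 records with 5 to 19, 0.159 over the 67 with 20 to 99 and 0.123 over the 22 with 100 or more. The shallow records thus had the wider differences, and 44 of those 141 had levels without overlap, against 22 of the 22 deepest. The corresponding shares of records lower in group 1 were near these, 32.9% under 5 reads and 95.6% at 100 or more. Records lower in group 1 were deeper, with a median of 12 reads in the shallowest library.

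**Figure D1:**
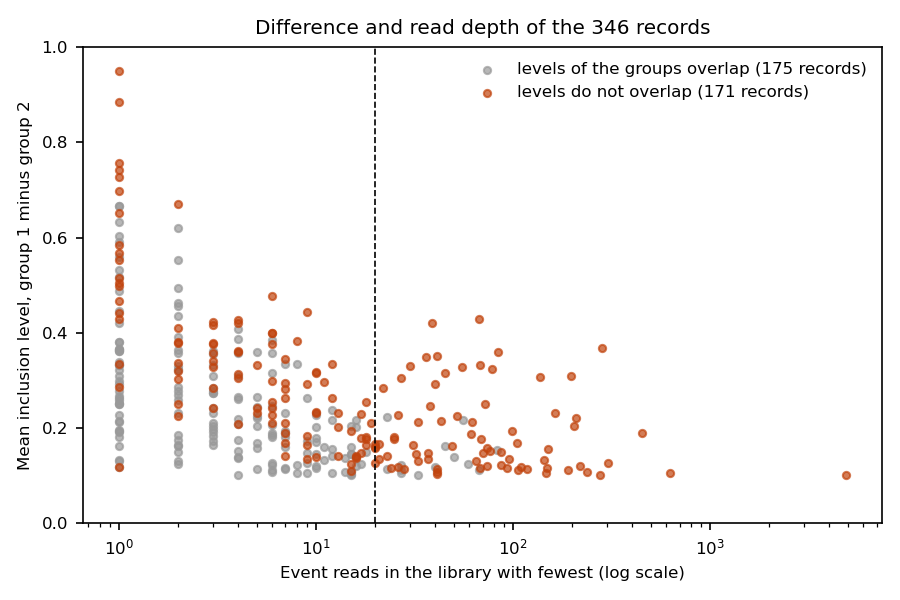
Each point is one of the 346 records, placed by its reads in the library with fewest (log scale) and by its mean inclusion level in group 1 minus group 2. Orange points (171) are records whose levels did not overlap, grey points (175) those that did, and the dashed line stands at 20 reads. The widest differences, up to 0.949, lie at 1 or 2 reads.

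The smallest listed differences lay just over 0.1. On the side of the set they belonged to HNRNPD, an AU-rich element binding protein (exon 2, 57 bases, mean levels 0.843 and 0.743), and DNM2 (0.957 and 0.856). Nearest on the other side of 0 were an exon of MFF other than the one printed above (0.113 and 0.213) and one of TMEM14B (0.877 and 0.978). No SE record lay between -0.1 and 0.1.

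The exons were short. Their median length was 99 bases (quartiles 62 and 143), against 118.5 bases for the 884 exons lower in group 1 and 123 bases for 166325 internal exons of canonical GENCODE transcripts. Exons of at most 27 bases made up 23 of 332, or 6.93% (95% Wilson interval 4.66 to 10.2), compared with 7 of 884, or 0.792% (0.384 to 1.63), of the exons lower in group 1 and 0.702% of the canonical internal exons. With at least 20 reads in every library the shares were 8 of 85, or 9.41% (4.85 to 17.5), and 3 of 346, or 0.867% (0.295 to 2.52), so these intervals did not overlap at either depth. Exons of at most 51 bases were 18.7% of the 332 and 7.58% of the 884. Of the 23 microexons, 18 had a length that is a multiple of 3, or 78.3% (58.1 to 90.3). The share was 5 of 7, or 71.4% (35.9 to 91.8), of the microexons lower in group 1 and 65.9% of the canonical ones, so the intervals overlapped. All 23 lay wholly in coding sequence, as did the 7 lower in group 1. The limit of 27 bases was set after the lengths had been seen, the intervals cover counting error only, and exons are not independent samples.

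**Figure D2:**
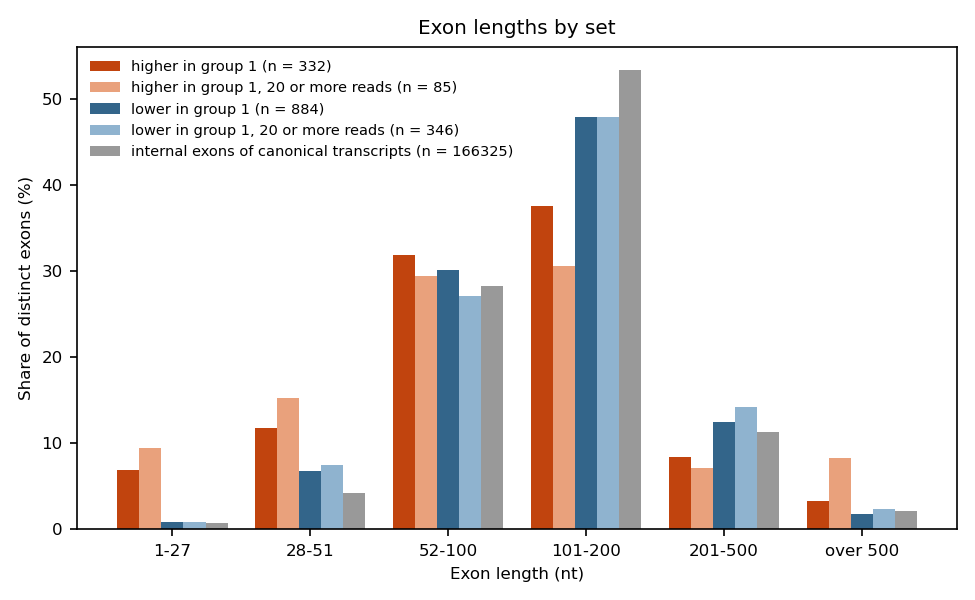
Bars give the share of distinct exons (%) in each class of exon length (nt), for exons higher in group 1 (orange), exons lower in group 1 (blue), both also for records with at least 20 reads in every library (paler), and internal exons of canonical transcripts (grey). The classes up to 27 nt hold 6.93% and 9.41% of the exons higher in group 1 and under 1% of the other sets.

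The 8 microexons with at least 20 reads were all a multiple of 3 bases long, and their levels did not overlap between the groups. Absence of overlap held for 85.4% of the set's records and 83.7% of all SE records at that depth, so it was not particular to microexons. The shortest, with 6 bases, lies in DCTN2, a dynactin subunit of the microtubule motor machinery. It had levels of 0.293, 0.285 and 0.361 in group 1 as opposed to 0.095, 0.067 and 0.084 in group 2. In this record the exon was thus in the minority form in both groups, with 56, 52 and 61 inclusion reads against 22, 13 and 18. Another record of the same exon had a different neighbour and as few as 1 read in a library. Its levels were 0.741, 0.852 and 0.589 in group 1 against 0 in all values of group 2.

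The 9-base exon 7 of MTSS1L, which encodes a membrane-bending actin regulator, was the deepest of them, with at least 452 reads in each library. Its levels were 0.641, 0.686 and 0.687 in group 1 compared with 0.484, 0.478 and 0.485 in group 2. The narrow spread within group 2 stood beside a difference of 0.189 between the means.

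STX16 encodes a SNARE protein of the trans-Golgi network, and its 12-base exon 2 had levels of 0.513, 0.564 and 0.592 in group 1, against 0.179, 0.285 and 0.284 in group 2. A second record of the same exon, with another neighbouring exon, had 1, 0.865 and 0.913 against 0.445, 0.704 and 0.638. The order of the groups was the same in both records, which can share reads over the exon.

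DNM2 encodes dynamin 2, the GTPase that pinches off endocytic vesicles. Its 12-base exon 14 was mostly included, with levels of 0.953, 0.961 and 0.958 in group 1 as opposed to 0.852, 0.837 and 0.878 in group 2. The paralogous gene DNM1 has a 12-base exon 14 too, and this one was among the exons lower in group 1, with 0.501, 0.549 and 0.647 against 0.630, 0.769 and 0.725. The groups overlapped for DNM1 and did not for DNM2.

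INCENP, the scaffold of the chromosomal passenger complex in mitosis, had levels of 0.308, 0.393 and 0.346 in group 1 compared with 0.129, 0.163 and 0.140 in group 2 for its 12-base exon 11. MAX, the dimerisation partner of MYC, had 0.449, 0.404 and 0.465 against 0.315, 0.312 and 0.312 for a 27-base exon. In both records the form without the exon was the more frequent one.

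SNX14, a sorting nexin of the endoplasmic reticulum, had levels of 0.462, 0.398 and 0.381 in group 1, against 0.178, 0.278 and 0.202 in group 2 for its 27-base exon 16. PTPRF, a receptor tyrosine phosphatase, had 0.284, 0.142 and 0.127 against 0.015, 0.038 and 0 for its 27-base exon 14. The PTPRF values rest on 11, 5 and 3 inclusion reads in group 1 and on 1, 2 and 0 in group 2, so they were the least precise of the 8.

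**Figure D3:**
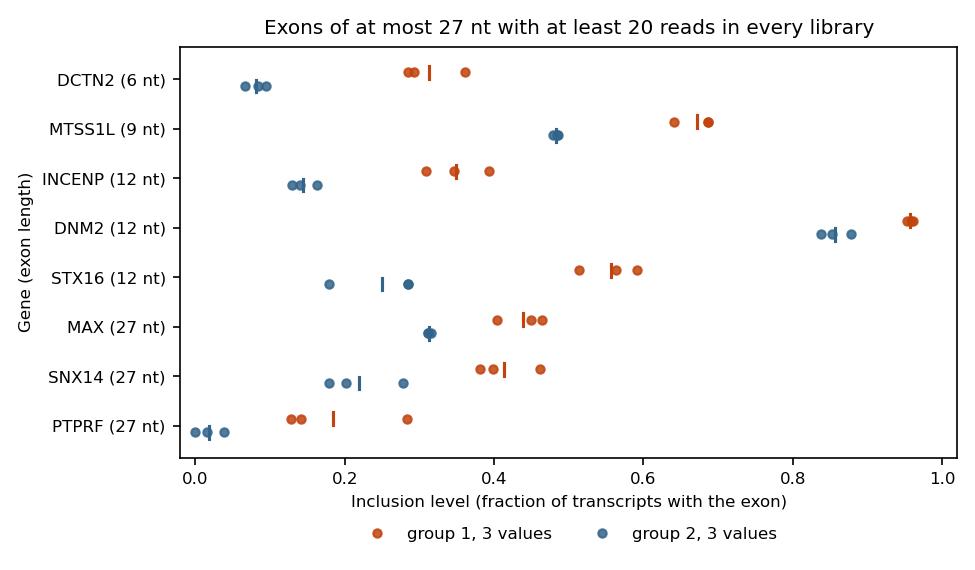
Inclusion levels (share of the record's transcripts, 0 to 1) of the 8 exons of at most 27 nt with at least 20 reads in every library, one row per gene. Points are the 3 values of group 1 (orange) and of group 2 (blue) and ticks their means. In every row the orange points lie to the right of the blue ones, from PTPRF below 0.3 to DNM2 above 0.8.

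Next, the 20 exons with the widest difference at no less than 20 reads and without overlap were examined one by one, STX16 and DCTN2 among them. BIN1 encodes an amphiphysin that bends membranes, and its exon 12 (129 bases, chromosome 2) had levels of 0.638, 0.624 and 0.601 in group 1 as opposed to 0.225, 0.296 and 0.264 in group 2. A shallower record of the same exon spanned another neighbour and gave a difference of 0.428. BIN1 exon 16 (90 bases) was listed as well, with 0.754, 0.694 and 0.772 against 0.563, 0.646 and 0.560. The exon 16 record and the shallower exon 12 record used the same skipping reads, 16, 18 and 15 in group 1 and 45, 34 and 39 in group 2, so they are not separate measurements of skipping. By its mean level, exon 12 passed from the minor to the major form.

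SMPD4 encodes a neutral sphingomyelinase of the endoplasmic reticulum and nuclear envelope. Its exon 11 (87 bases) had levels of 0.561, 0.709 and 0.716 in group 1 compared with 0.162, 0.405 and 0.363 in group 2, with a wide spread in both groups but no overlap. GANAB, the catalytic subunit of glucosidase II in the endoplasmic reticulum, had 0.320, 0.394 and 0.378 against 0.133, 0.159 and 0.133 for a 66-base exon outside the canonical transcript. MFF, the receptor that draws the fission GTPase DRP1 to mitochondria, had 0.406, 0.540 and 0.333 against 0.081, 0.275 and 0.182 for its 60-base exon 7. A second record of this MFF exon, with another neighbour and at least 12 reads, had 1, 0.846 and 0.921 against 0.328, 0.672 and 0.762.

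CHAF1A, the large subunit of the histone chaperone CAF-1, had 2 neighbouring exons in the set. Exon 2 (51 bases) had levels of 0.718, 0.702 and 0.750 in group 1, against 0.357, 0.477 and 0.348 in group 2. Exon 3 (857 bases) had 0.699, 0.676 and 0.704 against 0.414, 0.419 and 0.319. Both records used the same skipping reads, 22, 22 and 18 in group 1 as opposed to 31, 37 and 43 in group 2, so they are not separate measurements of skipping.

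MTA1, a subunit of the NuRD chromatin remodelling complex, had levels of 0.447, 0.506 and 0.510 in group 1 compared with 0.303, 0.405 and 0.298 in group 2 for its 51-base exon 4. A second record of that exon gave 0.839, 0.918 and 0.834 against 0.695, 0.712 and 0.637. UPF3A, a factor of nonsense-mediated mRNA decay, had 0.782, 0.775 and 0.793 against 0.533, 0.531 and 0.532 for its exon 3 of 107 bases. The UPF3A values lay close together within each group, and this exon is not a multiple of 3 long.

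KCNAB2, a subunit of voltage-gated potassium channels, had levels of 0.636, 0.574 and 0.637 in group 1, against 0.249, 0.327 and 0.297 in group 2 for a 42-base exon. ZFAND1, a stress granule regulator, had the widest difference among the 20, with 0.657, 0.497 and 0.638 against 0.172, 0.220 and 0.140 for its 40-base exon 3. REPIN1, a zinc finger protein, had 0.801, 0.788 and 0.756 against 0.543, 0.660 and 0.468 for its exon 2. The next entries have uncertain reads or annotation. CBWD5 (0.603, 0.612 and 0.615 against 0.260, 0.368 and 0.287) has near-identical paralogs, and LINC00680 (0.672, 0.697 and 0.749 against 0.334, 0.36 and 0.479) and RP11-544M22.13 (0.801, 0.799 and 0.681 against 0.401, 0.566 and 0.434) lie in a non-coding transcript and in transcripts marked for decay, respectively.

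**Figure D4:**
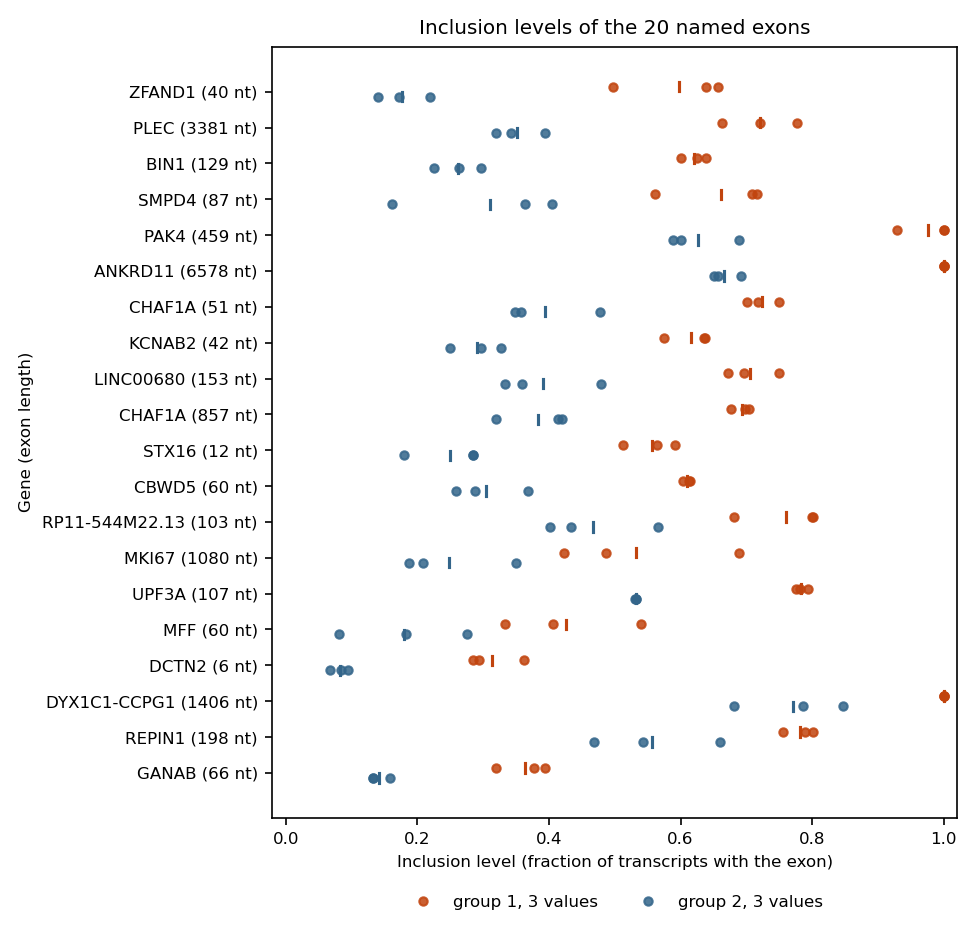
Inclusion levels (share of the record's transcripts, 0 to 1) of the 20 exons with the widest difference at no less than 20 reads in every library, one row per exon with its length in nt. Points are the 3 values of group 1 (orange) and group 2 (blue) and ticks their means, with all orange points to the right of the blue points in each row. ANKRD11 and DYX1C1-CCPG1 stand at 1 in group 1.

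The longest exons of the set need a separate reading, because their levels depended on the effective length. The table divides inclusion reads by exon length plus 130 bases and skipping reads by 130 bases. Across SE records with at least 100 reads, however, inclusion reads divided by the gene's reads per base had a median of 299.9 bases over 287 records with exons of over 100 and up to 200 bases and 222.9 bases over 20 records with exons of more than 500 bases, whose effective length was 1020 bases in the median. Between these classes the medians were 392.4 bases for exons of over 200 and up to 300 bases and 381.9 bases up to 500, and below them 170.2 bases for exons of at most 27. They were thus larger up to 500 bases, though not in every step, and smaller above 500 bases, where the effective length kept growing, and the cause was not tested. Levels were computed again with no more than 260 bases for inclusion, an alternative chosen after the data had been seen. All 346 records stayed higher in group 1, which was fixed in advance for those without overlap, because both groups share the lengths. Of 103 records with an exon over 130 bases, however, 8 had a difference under 0.1. They included 5 of the 7 with an exon over 500 bases and at least 20 reads.

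PLEC, the cytoskeletal linker plectin, had levels of 0.663, 0.721 and 0.776 in group 1 as opposed to 0.320, 0.342 and 0.394 in group 2 for its exon 31 of 3381 bases. With the shorter effective length its mean levels became 0.972 and 0.879, and the difference fell from 0.368 to 0.0926. The skipping reads themselves were 6, 4 and 3 in group 1 compared with 38, 35 and 30 in group 2, and the inclusion reads 319, 279 and 281 and 483, 492 and 526.

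ANKRD11, a chromatin regulator, was at 1 in group 1 and at 0.650, 0.692 and 0.657 in group 2 for its exon 9 of 6578 bases. The group 2 levels rest on 1 skipping read in each value beside 96, 116 and 99 inclusion reads, and the difference was 0.019 with the shorter effective length. DYX1C1-CCPG1, a readthrough locus that shares exons with CCPG1, was at 1 in group 1 and at 0.682, 0.846 and 0.786 in group 2 with 3, 1 and 2 skipping reads, and its difference became 0.049. AFF4, a scaffold of the super elongation complex, went from 0.114 to 0.0314 in the same way.

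Other long exons kept a wide difference. CHAF1A exon 3 had mean levels of 0.895 and 0.70 with the shorter length, a difference of 0.195. MKI67, the proliferation antigen Ki-67, had levels of 0.486, 0.689 and 0.423 in group 1, against 0.187, 0.209 and 0.349 in group 2 for its 1080-base exon 7, and a difference of 0.239 with the shorter length. PAK4, a kinase of the actin cytoskeleton, had 1, 1 and 0.929 against 0.688, 0.589 and 0.601 for its 459-base exon 4, and a difference of 0.199. Skipping reads were few, with 5, 3 and 6 against 7, 11 and 8 for MKI67 and 0, 0 and 1 against 4, 8 and 6 for PAK4.

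The 26 genes in which the study singled out an exon gave 14 genes with a record in the set, 16 records and 15 exons, and 12 genes with records lower in group 1 only. The study chose that list on these libraries, so its direction is not independent evidence. The count is by gene, and the exon in the set is not always the one singled out, as for FRMD4A and CTD-2270P14.1. Of the 15 exons, 8 had at least 20 reads and no overlap, beside 72 of the 332 exons of the whole set (21.7%). CDK5RAP2, a centrosomal protein, had levels of 0.720, 0.765 and 0.690 in group 1 as opposed to 0.546, 0.633 and 0.600 in group 2 for its exon 32 of 237 bases. SBF1, a phosphoinositide phosphatase relative, had 0.331, 0.362 and 0.344 against 0.186, 0.298 and 0.208 for exon 29. TCF20, a transcriptional coregulator, had 0.529, 0.528 and 0.575 against 0.340, 0.391 and 0.455 for exon 5.

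The other genes of that list with a record in the set were less certain. RGS19, a G protein regulator, had levels of 0.954, 1 and 0.919 in group 1 compared with 0.855, 0.716 and 0.937 in group 2. These overlap, although each library held at least 27 reads. FRMD8 was at 1 in group 1 and at 0.691, 0.627 and 0.359 in group 2 with a minimum of 1 read per library, and the same FRMD8 exon had another record lower in group 1. OBSL1, FRMD4A, ADGRB2, ARVCF and CTD-2270P14.1 had 2 to 5 reads in their shallowest library.

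Gene lists by function placed 35 of the 309 genes, and the lists were written with earlier results of these data known. In the list of 68 genes of endocytosis and membrane traffic, 10 had exons higher in group 1 and 13 had exons lower, and 8 of the 11 exons higher in group 1 had at least 20 reads and no overlap, where the share over the set was 21.7%. The list holds genes put in it with those results known. They included DNM2, STX16, SNX14 and both BIN1 exons. In the list of 82 genes of polarity, junctions and the cytoskeleton, 13 had exons higher and 14 had exons lower, with 4 of 14 exons at that depth and without overlap. MYL6, a myosin light chain, had 0.504, 0.70 and 0.623 against 0.407, 0.478 and 0.527, which overlap.

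The other lists held fewer genes of the set. Of 86 chromatin genes, 5 had exons higher in group 1 (CHAF1A, MTA1, TCF20, ING3 and TET2) and 15 had exons lower. Of 65 centrosome and mitosis genes, 2 had exons higher and 10 lower. CEP131, a centriolar satellite protein, was at 1 in group 1 and at 0.857, 0.874 and 0.886 in group 2. Its skipping reads were 0 in each value of group 1 and 3, 2 and 2 in group 2. Of 85 splicing regulators, 2 had exons higher and 6 lower. HNRNPD had 0.852, 0.831 and 0.847 against 0.732, 0.754 and 0.742 with at least 4873 reads per library, the deepest record of the set, while PTBP2, the neuronal polypyrimidine tract binding protein, fell to 1 read in a library.

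Of 68 replication and repair genes, RAD52 and RAD51D had exons higher, and 6 genes had exons lower. The levels of RAD52 overlapped. The RAD51D exon had a record with overlap and another without, at 1, 1 and 0.610 against 0, 0 and 0.343. Both RAD51D records fell to 1 read in a library. Of 30 EMT and Wnt genes, 1 had an exon higher and 3 had exons lower. This was CTNNBIP1, an inhibitor of beta-catenin, with 0.141, 0.276 and 0.158 against 0.054, 0.062 and 0.055 for its untranslated exon 2. Across all lists, the genes with lower exons were the more numerous, as were the lower records among all SE records.

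Some genes and exons were listed in both directions. Of the 309 genes, 49 also had a record lower in group 1, and 21 had more than 1 exon in the set. For 8 exons the same exon had records of both signs with different neighbours. In none of these 8 did the record higher in group 1 reach 20 reads, while the opposite record did for BTRC, a ubiquitin ligase subunit, and AFMID, a kynurenine pathway enzyme. For AFMID exon 6 the record higher in group 1 stood at 1 against 0.535, 0.435 and 0.762 with as few as 3 reads, and the deeper record at 0.107, 0.053 and 0.055 against 0.160, 0.235 and 0.204.

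Annotation placed 70.8% of the 332 exons wholly in coding sequence, 7.83% partly, 7.53% in untranslated regions, 12.3% in non-coding transcripts and 1.51% in transcripts marked for decay. The corresponding shares of the exons lower in group 1 were 72.7%, 6.45%, 6.90%, 12.6% and 1.36%, close to the first set. A length that is a multiple of 3 was found in 45.5% (40.2 to 50.9) of the exons higher and in 47.5% (44.2 to 50.8) of those lower in group 1, and in 40.4% of canonical internal exons. The intervals of the first pair overlap. Canonical transcripts contained 81.3% and 84.6% of the exons.

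Splice site strength was scored as the summed log2 odds of each base over a background of 0.25, from canonical internal exons, over 23 bases at the 3' and 9 bases at the 5' splice site. The median 3' score was 8.35 (quartiles 5.70 and 10.5) for the exons higher in group 1, 9.07 (7.02 and 11.3) for those lower and 9.41 (7.11 and 11.7) for canonical internal exons. With at least 20 reads the medians were 7.61 and 8.85. Leaving out exons of at most 27 bases, they were 7.70 and 8.82, so the order of the medians was the same without microexons. The quartile ranges overlapped widely in each case.

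Single exons show what the score reads. The MFF sequence printed above has a run of adenines before its AG and scored -2.31, and the DCTN2 microexon scored -4.75. BIN1 exon 12 scored 1.96, KCNAB2 4.04, STX16 3.84 and DNM2 3.92. At the other end, the pyrimidine-rich stretch before the MAX exon gave 16.7 and that of SMPD4 12.3. The exons named here thus spanned both weak and strong 3' splice sites.

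Other sequence features were compared in the same way. The median 5' score was 7.94 for exons higher and 7.61 for exons lower in group 1. Pyrimidines made up a median of 70.6% of the 17 bases that were counted before the exon in the first set and 76.5% in the second. The median GC content was 52.05% against 49.4% over all exons and 56.9% against 48.8% at 20 reads or more. The intron after the exon had a median of 2667 bases against 2223.5, and 2559 against 1665.5 at 20 reads or more, while the introns before the exon had 2418 and 2307. Quartile ranges overlapped for each feature, and the part of read depth in these differences was not tested.

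Total mRNA of the host genes was compared next, shRBM39 over shCtrl. Among 18243 genes tested with edgeR's quasi-likelihood test, 59.1% had an adjusted p under 0.05, 29.2% higher and 29.9% lower in shRBM39. Of the 309 host genes, 307 were tested and 205 passed, or 66.8%, with 82 higher (26.7%) and 123 lower (40.1%). Among 716 tested genes with exons lower in group 1 only, 67.3% passed, with 31.4% higher and 35.9% lower. With library totals in place of TMM scaling, 57 host genes were higher (18.6%) and 167 lower (54.4%), beside 20.7% and 40.4% of all genes tested, since that scaling moved the median of all genes from -0.01 to -0.14. The median log2 fold change of the host genes was -0.08 in the first fit and -0.20 with library totals. Bulk RNA cannot separate fewer cells of a kind from less RNA per cell.

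Host genes of the named exons went both ways. CHAF1A measured 179 ± 3.09 CPM in shCtrl and 331 ± 16.6 CPM in shRBM39 (SD, n = 3 libraries each), a log2 fold change of 0.88 (SE 0.04, edgeR adjusted p = 1.15e-19). GANAB went from 141 to 282 CPM (log2 fold change 0.997, edgeR adjusted p = 2.48e-21). INCENP was higher by 0.59 on the log2 scale and MKI67 by 0.68. PLEC fell from 1754 to 1022 CPM (log2 fold change -0.78, edgeR adjusted p = 3.49e-18), and MTA1 and PTPRF had log2 fold changes of -0.50 each.

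Others had small differences or none past the threshold. BIN1, MTSS1L and CDK5RAP2 had log2 fold changes of 0.10 each with TMM scaling and of -0.02 each with library totals, so their sign depended on the scaling. MFF had 0.03 (edgeR adjusted p = 0.609), DCTN2 0.01 (edgeR adjusted p = 0.871) and MAX -0.04 (edgeR adjusted p = 0.319). For a comparison over genes, each host gene was given the widest inclusion difference among its records, whatever their depth. DCTN2 thus entered with 0.727, from a record with as few as 1 read in a library. Across 307 host genes the log2 fold change of total mRNA and this difference had a Pearson r of 0.014 and a Spearman rho of 0.019. These describe genes that share the 6 libraries, and the part of shallow records in them was not tested. Exons with wide differences were found in genes that were higher, lower and near 0.

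**Figure D5:**
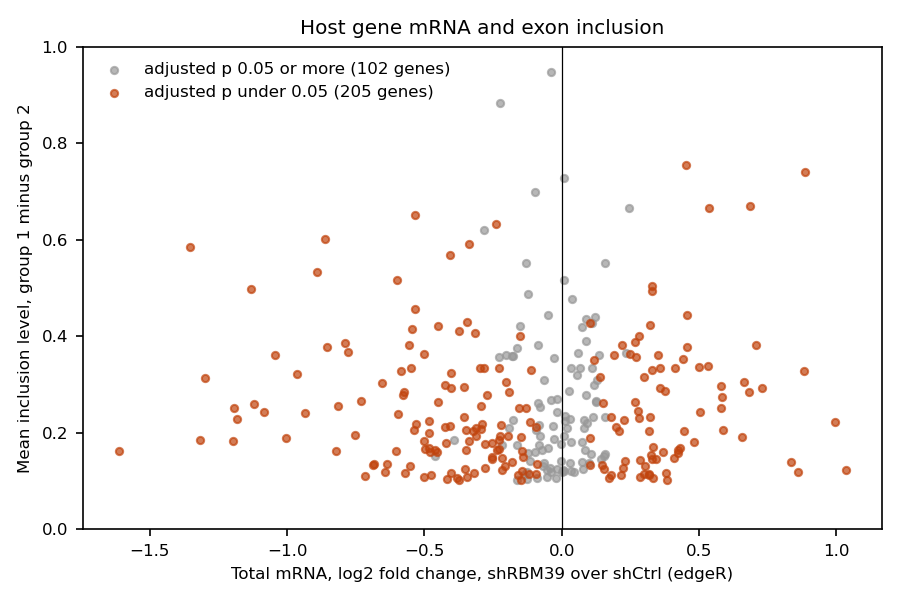
Each point is one of 307 tested host genes, placed by the log2 fold change of its total mRNA (shRBM39 over shCtrl, edgeR) and by the difference in mean inclusion level between group 1 and group 2 (0 to 1). The difference is the widest among the gene's records, whatever their depth. Orange points (205) had an adjusted p under 0.05 and grey points (102) did not, and points spread over both sides of 0 (Pearson r of 0.014).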

How the data were processed

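mRNA of SW480 cells was sequenced with a stranded kit that adds unique identifiers, in 3 shCtrl and 3 shRBM39 libraries. Trimmomatic 0.36, STAR 2.5.3a, featureCounts of Subread 1.5.1, edgeR 3.12.1 and GRCh38 are named in the submitters' processing notes, and whether identifiers were collapsed is not given in the sources used here. The authors deposited raw counts per gene, with columns named NC read as shCtrl. The authors also deposited splicing records made with rMATS (version not given in the sources used here), which hold read counts, effective lengths and inclusion levels as fractions, 3 values per group. Their p-values and the RPKM table were not used.

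Levels were recomputed from the reads to within 0.0005 of the listed ones. The group of a record is 1 or 2 as in the table, and its values were given without SD or test because they chose the records. The members and the gene lists were chosen with earlier results of these data known. Named exons were the 20 widest differences without overlap and with no library under 20 reads (the record with most reads for each exon), the exons of the 26 genes the study singled out, exons of both directions, the shortest and longest, exons of at most 27 bases, and up to 4 exons of each list by reads. An exon that this rule selects from a list is not reported here. Genes outside this rule (AFF4, TMEM14B) were named after their values were seen. Sequences and splice site scores came from GRCh38 with GENCODE v44.

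Gene counts were fitted with edgeR 4.0.16 in R 4.3.3 (filterByExpr, TMM, quasi-likelihood, Benjamini-Hochberg over 18243 genes at 0.05). On simulated counts with 200 changed genes, 91.9% were recovered and 0.04% of unchanged genes were called among 18010 tested. Every simulated gene had the same dispersion, and all changes were of the same size. These rates need not hold for the measured counts. DESeq2 1.42.0 and other scalings and filters were alternatives. Total counts of 18042924 to 20428901 per library set the precision of gene values, and the reads of each record that of its levels. Intervals are Wilson intervals at 95% for counting error only. The labels do not say that libraries came from separate cultures beyond the methods' replicate experiments, so p-values measure the spread between these libraries.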

Additional observations from a re-analysis of the deposited data

How the results depend on the processing

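The count of 346 records was 345 without the correction for effective length, 344 from summed reads, 346 with the inclusion length held at that of both junctions, and 344 to 350 with each value left out in turn. Every listed SE record differed by at least 0.1, so few signs could change and these counts are a weak check. Requiring 20 reads in every library left 89 records, 76 of them without overlap. The share of exons with a length that is a multiple of 3 was 51.9% among wholly coding exons, and the median GC content at 20 reads was 56.9%. RBM39 kept its direction and call under every alternative run, from -0.70 to -0.63 with each replicate left out and -0.79 with library totals. Genes called numbered 8494 with DESeq2, 11146 with library totals and 10138 to 10263 with a replicate left out, and host genes called 171, 224 and 183 to 203. Replicate numbers did not pair the libraries (correlations of deviations 0.00612, -0.0282 and 0.000114). With the replicate number as a block, 10810 genes and 203 host genes were called and RBM39 had -0.67. Depth limits the levels, since 257 records had under 20 reads in a library, and the effective length limits those of long exons.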
